A study of Mus musculus with 18 samples.

Results

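RAW264.7 cells, a mouse macrophage-like line, carried a lentiviral construct (pINDUCER20-mCITED1, labelled p2080) from which doxycycline switches on mouse CITED1. Both groups compared here received interferon-gamma, 200 U/mL by the protocol, and 1 of them also received doxycycline at 100 ng/mL. Each group had 3 samples. The construct was therefore present in all 6 samples, and CITED1 was induced in 3 of them. The question was which interferon-gamma-stimulated genes CITED1 shifts. Genes were taken as changed where the authors' deposited table of pairwise comparisons had a row for this pair of groups, which means at least 2-fold with a q-value of 0.05 or less. That was the case for 719 genes of the 5455 named genes listed in any comparison between the study's 6 groups. The other 4 groups were untreated parental cells, parental cells with doxycycline, untreated construct cells and construct cells with doxycycline, with 3 samples each.

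The labels do not give the length of treatment, whether the construct cells were a clone or a pool, or if replicate samples were grown as separate cultures. If they were not, q-values measure only the spread between these samples, which may be technical. The table holds 1 fold change, 1 summed FPKM (fragments scaled by transcript length and library size) and 1 q-value per row. No value per sample, SD or sequencing depth can be attached to a number below. Each group's level follows from those FPKM and the ratio, and is called rebuilt FPKM. A gene without a row may have changed less than 2-fold, failed the q-value or not been tested. Stimulated parental cells with doxycycline were not analysed here, so in stimulated cells an effect of doxycycline itself and one of CITED1 cannot be told apart.

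CITED1 is a nuclear co-regulator that has no DNA-binding domain of its own and binds the co-activators CBP and p300 through a conserved acidic domain. Interferon-gamma acts through its receptor, the kinases JAK1 and JAK2 and transcription factors of the STAT family, which bind gamma-activated sites. Interferon regulatory factors bind interferon-stimulated response elements, which are also the sites of the type I interferon response. In macrophages this programme raises antigen presentation, antiviral proteins and inflammatory mediators and lowers genes of the resting state.

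With doxycycline, 373 genes were higher (6.84% of the 5455 listed genes) and 346 were lower (6.34%), 13.2% in either direction. These background shares are the ones against which the counts of gene lists below are read. In unstimulated construct cells doxycycline gave 11 genes higher and 11 lower (0.202% each), 0.403% of the listed genes in all. In unstimulated parental cells it gave 6 higher (0.11%) and 43 lower (0.788%), 0.898% in all. In the authors' deposited table the middle fold was 2.46 for genes that were higher and 2.45 for genes that were lower, with maxima of 21.4 and 12.26.

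With interferon-gamma alone, the group both sets share, the median level was 4.69 rebuilt FPKM among genes that rose and 3.23 among genes that fell. The higher of a gene's 2 levels, which is by construction the level with both for genes that rose, had medians of 11.5 and 3.23. At least 100 rebuilt FPKM was reached by 42 genes that rose and by 2 that fell. Below 1 rebuilt FPKM in both groups were 28 and 41. With 1 FPKM added to both levels, 231 genes were still at least 2-fold higher and 95 at least 2-fold lower. With genes below 1 FPKM in both groups left out, 345 were higher and 305 lower.

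**Figure D1:**
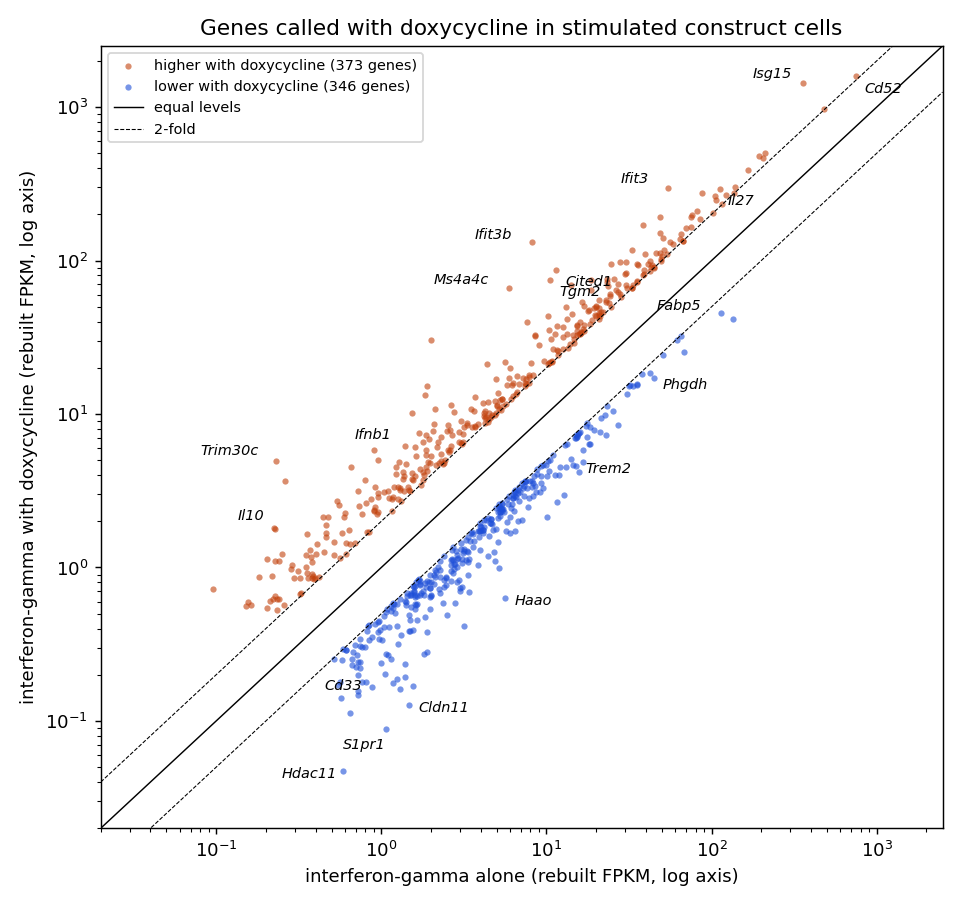
Each point is 1 of the 719 called genes, at its rebuilt FPKM with interferon-gamma alone (x axis) and with interferon-gamma and doxycycline (y axis), both on log axes; orange points were higher and blue points lower with doxycycline, and dashed lines mark 2-fold. Isg15 and Cd52 stand at the top of the range, at 1429 and 1583 rebuilt FPKM with both treatments, while the largest falls, such as S1pr1 and Hdac11, lie below 0.1 rebuilt FPKM with both treatments.

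Most called genes had near-equal levels in unstimulated cells with and without doxycycline. Both unstimulated levels could be rebuilt for 230 of the genes that rose, and 196 of them (85.2%) lay within 1.5-fold of each other. The median log2 ratio of those pairs was 0.11. The same held for 247 of 261 genes that fell (94.6%), with a median log2 ratio of -0.01. For 124 genes that rose and 74 that fell the table gave no untreated level. The share among all listed genes was not counted, and only 0.403% of them were called in the unstimulated pair. Near-equal unstimulated levels are therefore not shown to be particular to the called genes.

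Among the genes that rose most, several had promoters with letters that match the core of an interferon response element, and a few are shown for that reason. The windows are those of RefSeq (build GRCm38.p6), 250 bases before to 50 after a gene's start. The stretches below are 60 bases long, lie before the start, run 5′ to 3′ in the direction of the gene and mark in capitals the 9 bases of the match nearest to the start. The motif searched was GAAANNGAA on either strand, so a match reads either GAAANNGAA or its reverse complement, TTCNNTTTC.
Ifit3b, chr19:34607797-34607856, plus strand: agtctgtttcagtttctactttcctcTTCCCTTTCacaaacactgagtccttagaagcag
Ifit1bl1, chr19:34599428-34599487, minus strand: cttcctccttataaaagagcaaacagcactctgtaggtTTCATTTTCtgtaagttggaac
Ifi214, chr1:173536003-173536062, minus strand: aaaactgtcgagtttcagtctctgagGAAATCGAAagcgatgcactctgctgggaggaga
Apol9b, chr15:77729012-77729071, plus strand: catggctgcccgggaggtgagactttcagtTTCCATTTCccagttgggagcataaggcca
Ifit1bl2, chr19:34640755-34640814, minus strand: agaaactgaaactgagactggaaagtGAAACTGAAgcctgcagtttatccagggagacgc
Trim30d, chr7:104507856-104507915, minus strand: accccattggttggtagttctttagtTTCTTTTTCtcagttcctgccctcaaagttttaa

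The capitals end 125 bases before the start in Ifit3b, 13 in Ifit1bl1, 70 in Ifi214, 21 in Apol9b, 36 in Ifit1bl2 and 31 in Trim30d. The stretch of Ifit3 has the same 60 letters as that of its near-identical neighbour Ifit3b. The stretch of Ifit1bl2 overlaps that of Ifit1, which is read in the opposite direction from the other strand, so a single region faces both genes.

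Among protein-coding genes with a promoter in the RefSeq table, GAAANNGAA was present for 61 of 242 genes that rose (25.2%) and for 17 of 261 genes that fell (6.51%). It was present for 8.92% of the 3477 listed genes that were not called here and for 9.76% of all 27025 genes of the promoter table. Of the antiviral genes that rose, 15 of 22 held it (68.2%). The share among antiviral genes that were not called was not counted, so 68.2% cannot be tied to the rise rather than to the list. The other motifs showed smaller gaps. The gamma-activated site TTCNNNGAA was present for 10.3% of genes that rose, 4.98% of those that fell, 9.03% of listed genes not called and 9.55% of all genes. The NF-kB motif GGGNNTTCC was present for 8.68% of genes that rose, 4.98% of those that fell, 9.03% of listed genes not called and 6.58% of all genes. The cAMP response element TGACGTCA was present for 4.55%, 1.92%, 3.94% and 2.03% of the same groups. All were searched on both strands of the 300-base windows, and matches of different motifs may overlap. A match is a run of letters and does not show that a factor binds there. Close copies such as Ifit3 and Ifit3b, and neighbours that share a region such as Ifit1 and Ifit1bl2, were counted as separate genes. The shares therefore do not rest on independent promoters. Of 300 protein-coding gene names that rose 243 matched a RefSeq window (81.0%), and as a pair of names leads to the same RefSeq gene these are 242 genes; of 317 that fell 261 matched (82.3%).

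**Figure D2:**
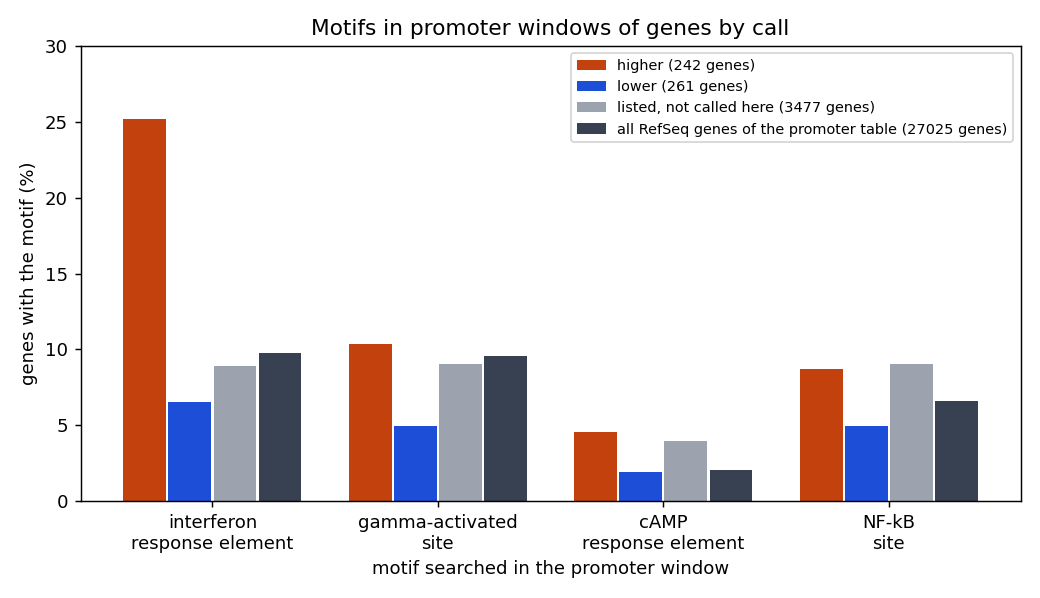
Bars give the percentage of protein-coding genes, by call, and of all RefSeq genes of the promoter table whose 300-base window holds each of 4 motifs; the numbers of genes are in the key. The interferon response element stands at 25.2% for genes that rose, against 6.51% for genes that fell and 8.92% for listed genes not called.

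Cited1, the induced gene, was at 0.703 rebuilt FPKM in untreated construct cells and at 168 with doxycycline. It was at 11.5 with interferon-gamma alone and at 86.7 with both treatments, so the group without inducer was not at the untreated level. The authors' deposited table gives 7.55-fold for the stimulated pair. Reads from the cell's own gene and from the construct, which holds the mouse coding sequence, cannot be told apart here. Of other genes on the list of CITED family members and CBP/p300 partners, 2 of the 7 listed were also higher. The cAMP-responsive modulator gene Crem went from 8.01 to 21.4 rebuilt FPKM on its called entry, while another entry, at 9.17 and 13.7, was not called. The acetyltransferase gene Kat2b (PCAF) went from 15.4 to 34.5. Hif1a, whose product competes with CITED2 for CBP/p300, was not called, at 93.8 and 116.

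Of 12 genes on the macrophage marker list 7 were listed in any comparison, and 4 had levels in both stimulated groups. Ptprc, Cd68 and Adgre1 were at 111, 296 and 7.10 rebuilt FPKM with interferon-gamma alone and at 164, 255 and 5.03 with both, and none of them was called. Of the macrophage marker list only Fcgr1 was called. Of markers of T and NK cells, B cells and fibroblasts, 1 gene each was listed in any comparison and 0 were called. A gene is listed only where it was called in some comparison, so unlisted markers do not show that other cell types are absent. Of the dendritic cell markers 3 were listed and Xcr1 was higher.

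Antiviral effectors were the largest group that rose. Of the 61 genes of that list 52 were listed in any comparison, and 29 of these were higher (55.8%) and 0 lower. All 42 members whose levels were known in both stimulated groups lay above equality, with a median log2 ratio of 1.13, against 0.08 over all 4333 listed entries with both levels. The 42 include the 29 called genes, which are at least 2-fold higher by the call itself, so this median adds no separate support. A level exists only where an entry was called in some comparison, so such medians describe the listed entries and not all members. The IFIT genes, whose products bind viral RNA, led the group. Ifit3 was at 1.81 rebuilt FPKM untreated, 1.71 with doxycycline, 54.5 with interferon-gamma and 296 with both. Its near-identical copy Ifit3b was at 0.365, 0.432, 8.21 and 131 in the same order. In both genes the level with doxycycline alone lay close to the untreated one, and of the 4 groups only that with both treatments passed 100. Ifit1bl1 went from 1.99 with interferon-gamma alone to 30.6 with both, and Ifit1bl2 from 0.957 to 5.02. Ifit1 went from 2.10 to 10.7, but this is a minor entry, and its main entry, at 59.6 with interferon-gamma alone, has no level for the group with both. Reads can be shared among these copies, so the split between them is uncertain.

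Antiviral genes outside the IFIT family rose too. Mx1, of a family of dynamin-like GTPases with antiviral members, went from 14.1 to 69.6 rebuilt FPKM and Mx2 from 12.7 to 31.6. The Mx1 entry used is annotated as a nonsense-mediated decay transcript, and its called protein-coding entry went from 6.90 to 30.4. With pseudogene entries left out, 27 antiviral genes were higher. Rtp4, which restrains flavivirus replication, was at 19.6 untreated, 22.9 with doxycycline, 24.6 with interferon-gamma and 94.5 with both. Oas2, a sensor that makes the RNase L activator 2-5A, was at 14.2, 17.2, 16.3 and 53.6 in the same order. In these 2 genes interferon-gamma alone and the unstimulated groups lay close together, and the group with both treatments stood apart. Of the other genes of the OAS family, Oas1a went from 85.0 with interferon-gamma alone to 186 with both, Oas1b from 5.74 to 15.5, Oas1g from 28.3 to 57.8 and Oasl2 from 42.4 to 99.5. Oas1a and Oas1g are close copies.

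Members with other roles were also higher. Bst2, the tetherin that holds budding virus at the cell surface, went from 476 to 971 rebuilt FPKM. Isg20, an exonuclease, went from 50.6 to 139, and Ddx60, a helicase, from 2.65 to 11.5. Zc3hav1 (ZAP), which binds CpG-rich viral RNA, went from 7.87 to 17.9 and the helicase gene Mov10 from 49.0 to 98.6. Apol9a and Apol9b, near-identical apolipoprotein L genes, went from 18.6 to 75.1 and from 1.85 to 13.2. Parp14 went from 50.0 to 107, Parp12 from 102 to 205, Samd9l from 22.8 to 55.4 and the cytidine deaminase gene Apobec3 from 11.8 to 24.2. Ifi44l, Tor3a, Phf11a, Phf11c and Phf11d were higher as well, and the authors' deposited table gives them folds from 2.00 to 2.33.

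Some members with large interferon-gamma levels gave no value in the group with both treatments. Of the 49 antiviral members with a level under interferon-gamma alone, 7 had none with both, among them Ifi44 at 307, Cmpk2 at 161 and Ifitm3 at 1848 rebuilt FPKM. Over all entries, 858 of 4996 (17.2%) had a level with interferon-gamma alone and none with both. Xaf1 and Adar had rebuilt levels more than 2-fold apart, 31.6 and 81.8 for Xaf1 and 29.7 and 67.0 for Adar, and were not called.

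The ISG15 conjugation system attaches a ubiquitin-like protein to targets, and 3 of its 7 listed members were higher with 0 lower. Isg15, the modifier itself, was at 17.1 rebuilt FPKM untreated, 18.97 with doxycycline, 358 with interferon-gamma and 1429 with both. Uba7, its activating enzyme, went from 23.6 with interferon-gamma alone to 68.3 with both. Herc6, the ligase that serves this role in mouse, went from 23.2 to 72.6. Ube2l6, the conjugating enzyme, was at 79.3 and 156 and was not called. Usp18, the deconjugating protease, had no level with both treatments.

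Some members of clustered families of interferon-inducible genes rose. Of the PYHIN genes, whose products sense DNA or act in the nucleus, 6 of 12 listed were higher and 0 lower: Ifi214 went from 1.89 to 15.1 rebuilt FPKM, Ifi206 from 4.36 to 21.3 and Ifi209 from 13.1 to 49.8, with Ifi208, Ifi213 and Ifi203. For Ifi213 and Ifi203 the called entries were minor ones. The more abundant entry of Ifi203 was at 47.7 and 88.8. Of the TRIM list 6 of 11 were higher and 0 lower. Trim30c, the largest fold of this comparison, was at 0.136 untreated, 0.256 with doxycycline, 0.232 with interferon-gamma and 4.96 with both. Its neighbours Trim30b and Trim30d went from 0.262 to 3.67 and from 7.67 to 39.8, and Trim30a, which restrains NF-kB signalling, from 116 to 232. Reads may be shared within the Trim30 cluster. Of the Schlafen genes 3 of 7 listed were higher, Slfn1 from 48.6 to 193, Slfn8 from 8.48 to 32.8 and Slfn9 from 11.6 to 37.2. Slfn3 went the other way, from 1.84 to 0.477.

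**Figure D3:**
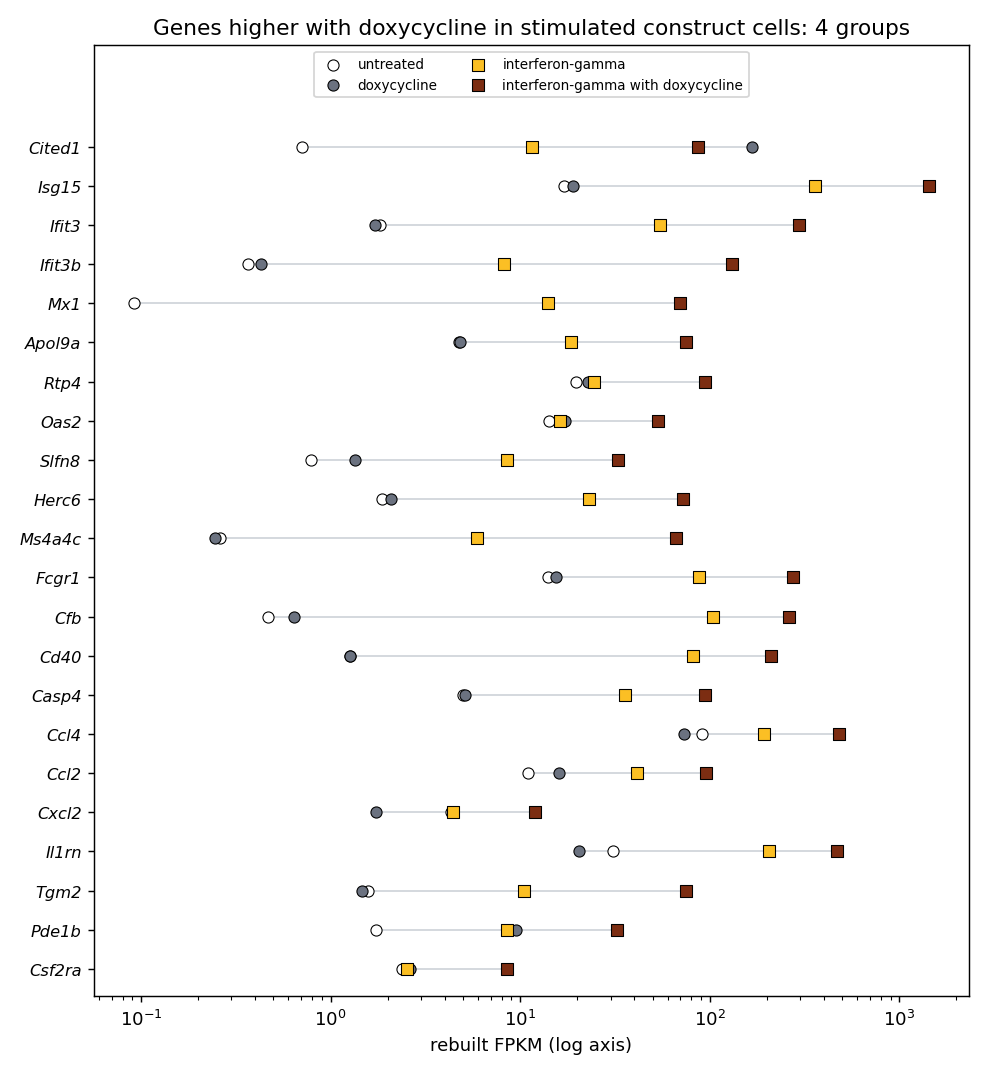
Rows are 22 genes that were higher with doxycycline in stimulated cells, and the markers give the rebuilt FPKM (log axis) in the 4 groups of construct cells; a missing marker means that the table gives no level. For Ifit3, Ifit3b and Isg15 the circles of the unstimulated groups lie on each other and the dark square of both treatments lies to the right of the interferon-gamma square, while Cited1 alone among these rows is highest with doxycycline alone.

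Interferon signalling genes themselves were mostly not called: of 16 listed members 2 were higher and 0 lower. Ifnb1, which encodes interferon-beta, a type I interferon that acts on antiviral genes through its own receptor, went from 1.40 to 6.18 rebuilt FPKM. Batf2 was called on a minor entry, from 0.360 to 0.850, and its main entry was at 153 and 268. The kinase and factor genes Jak1, Jak2, Stat3, Tyk2, Irf2 and Irf9 and the feedback inhibitors Socs1 and Socs3 had log2 ratios between 0.18 and 0.77 and were not called. All 12 listed members with both levels lay above equality, with a median of 0.47. Stat2 and Irf7, at 114 and 187 with interferon-gamma alone, had no level with both treatments.

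Sensors of nucleic acids and of bacterial walls had 8 of 22 listed members higher and 0 lower. Tlr3, the endosomal receptor of double-stranded RNA, went from 8.96 to 28.2 rebuilt FPKM and Tlr9, the receptor of CpG DNA, from 45.9 to 113. The cytosolic RNA helicases Ifih1 (MDA5) and Ddx58 (RIG-I) went from 27.0 to 70.03 and from 24.3 to 60.5. Nod1, which senses bacterial peptidoglycan, went from 5.37 to 12.5. Tlr7, the receptor of single-stranded RNA, was called on a minor entry, from 1.35 to 4.21, and its main entry, at 15.9 with interferon-gamma alone, has no level with both.

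Few antigen presentation genes were called, and the class II genes among them were lower. Of 12 listed class I genes 1 was higher, H2-Q2, from 75.2 to 193 rebuilt FPKM, a member of a family of close copies. The other 10 with both levels, among them the class I transactivator gene Nlrc5 at 27.5 and 50.0, had log2 ratios between 0.16 and 0.90 and were not called. Of 6 listed class II genes 2 were lower and 0 higher. Ciita, the class II transactivator, went from 2.88 to 1.14, and H2-Ob, a subunit of the regulator of peptide loading H2-O, from 2.78 to 0.586. Ciita was under 2-fold with 1 FPKM added (log2 ratio -0.86), and its Cuffdiff q-value was 0.0154. H2-DMa and H2-DMb2, of the peptide editor, were at 37.3 and 27.9 and at 10.5 and 6.97, not called. Of 6 listed interferon-inducible GTPases Gbp11 was higher, from 1.61 to 3.96. Gbp3 and Gbp7 were at 60.8 and 104 and at 65.0 and 85.5, not called, and Gbp5, at 217 with interferon-gamma alone, had no level with both.

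Cytokine genes had 8 of 13 listed members higher (61.5%) and 0 lower. They included pro-inflammatory and restraining members. Il27, which shapes T-cell responses, went from 113 to 292 rebuilt FPKM, and Il15, a growth factor for NK and memory T cells, from 23.05 to 53.7. Il1rn, the antagonist of the IL-1 receptor, was at 30.9 untreated, 20.5 with doxycycline, 205 with interferon-gamma and 467 with both. Il1b went from 0.918 to 3.34 and Il6 from 1.37 to 3.96, both low. Il10, an inhibitor of macrophage activation, went from 0.222 to 1.82. Csf1, the macrophage growth factor, went from 2.10 to 8.64 and Tnfsf10 (TRAIL), a death ligand, from 1.69 to 7.51. Tnf, at 189 and 253, was not called.

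Chemokine genes had 6 of 11 listed members higher and 0 lower. Ccl3 and Ccl4, which attract macrophages and T cells, went from 210 to 504 and from 193 to 482 rebuilt FPKM. Ccl3 was at 206 untreated and 194 with doxycycline, so the group with both treatments stood apart from 3 groups that were close together. Ccl2 and Ccl7, which attract monocytes, went from 41.2 to 95.5 and from 1.47 to 3.20, Ccl9 from 137 to 274 and the neutrophil attractant Cxcl2 from 4.41 to 12.03. Ccl5, at 36.8 and 52.9, and Ccl22, at 71.2 and 80.3, were not called. Of the receptors 5 of 27 listed were higher and 0 lower. Csf2ra, of the GM-CSF receptor, was at 2.38 untreated, 2.63 with doxycycline, 2.53 with interferon-gamma and 8.48 with both. Xcr1 went from 6.61 to 17.7 and Ccrl2 from 24.1 to 52.9. Ccr2 was called on an entry that went from 1.54 to 4.11, and its larger entry was at 4.61 and 4.85.

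Surface receptors of activated macrophages rose too. Of the complement and Fc receptor list 7 of 18 were higher and 3 lower. Fcgr1, the high-affinity IgG receptor, was at 14.1 untreated, 15.5 with doxycycline, 87.5 with interferon-gamma and 274 with both rebuilt FPKM, and Fcgr4 at 11.98, 17.9, 166 and 387. Cfb, complement factor B, went from 105 to 261, C3 from 17.7 to 46.8, its receptor gene C3ar1 from 26.4 to 64.5 and the integrin gene Itgax (CD11c) from 24.2 to 58.6. The classical pathway genes C1qb and C1qc were lower, from 6.76 to 3.18 and from 2.69 to 1.14. Of the costimulation and checkpoint list 6 of 15 were higher and 0 lower. Cd40 went from 81.3 to 210, with all 4 of its called entries higher, Cd86 from 20.9 to 55.7, Slamf7 from 5.58 to 21.9, Cd69 from 4.95 to 16.8 and Havcr2 (TIM-3) from 30.4 to 83.1.

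Of the NF-kB list 4 of 24 were higher and 0 lower, namely Cd40, Traf1, Nfkbid and Bcl2a1a. Traf1 went from 20.8 to 45.2 rebuilt FPKM and Bcl2a1a, a survival gene with close copies, from 45.0 to 90.4. With 1 FPKM added, or with levels rescaled to a median log2 ratio of 0, Cd40 and Traf1 were the 2 members still 2-fold apart. Nfkb2, Rel, Relb and Tnfaip3 were not called, with log2 ratios between 0.01 and 0.46. Of the immediate early genes 4 of 20 were higher and 0 lower: the MAP kinase phosphatase genes Dusp1, from 18.1 to 47.3, and Dusp2, from 33.2 to 117, with Fos, from 6.28 to 16.0, and Btg2, from 16.2 to 34.4. Of the inflammasome and cell death list 6 of 22 were higher. Casp4 (caspase-11), the sensor of cytosolic lipopolysaccharide, went from 35.6 to 94.0 and Daxx from 51.2 to 116. The death gene Bcl2l11 (BIM) went from 4.17 to 10.2. The survival gene Bcl2l1 was called on a minor entry, from 9.68 to 22.3, and its main entry was at 52.4 and 65.8, not called. Bmf, another BH3-only gene, was lower, from 3.19 to 1.28.

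Tgm2, a transglutaminase often used as a marker of alternative activation, was at 1.58 rebuilt FPKM untreated, 1.46 with doxycycline, 10.5 with interferon-gamma and 74.6 with both. It was the only one of 6 listed members of the M2-type list that was called. Ms4a4c, of a family of membrane-spanning 4-domain proteins, was at 0.262, 0.246, 5.93 and 66.5. Cd52, a small surface glycoprotein of leukocytes, was at 319, 356, 747 and 1583. The Notch ligand gene Dll1 went from 0.659 to 4.52 and the adaptor gene Themis2 from 122 to 267. The collagen gene Col11a2 and the pseudogene Bambi-ps1 were also among the 15 largest rises. None of the 8 listed enzymes of nitric oxide, arginine and tryptophan metabolism was called; Ass1, of arginine recycling, was at 207 and 349.

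**Figure D4:**
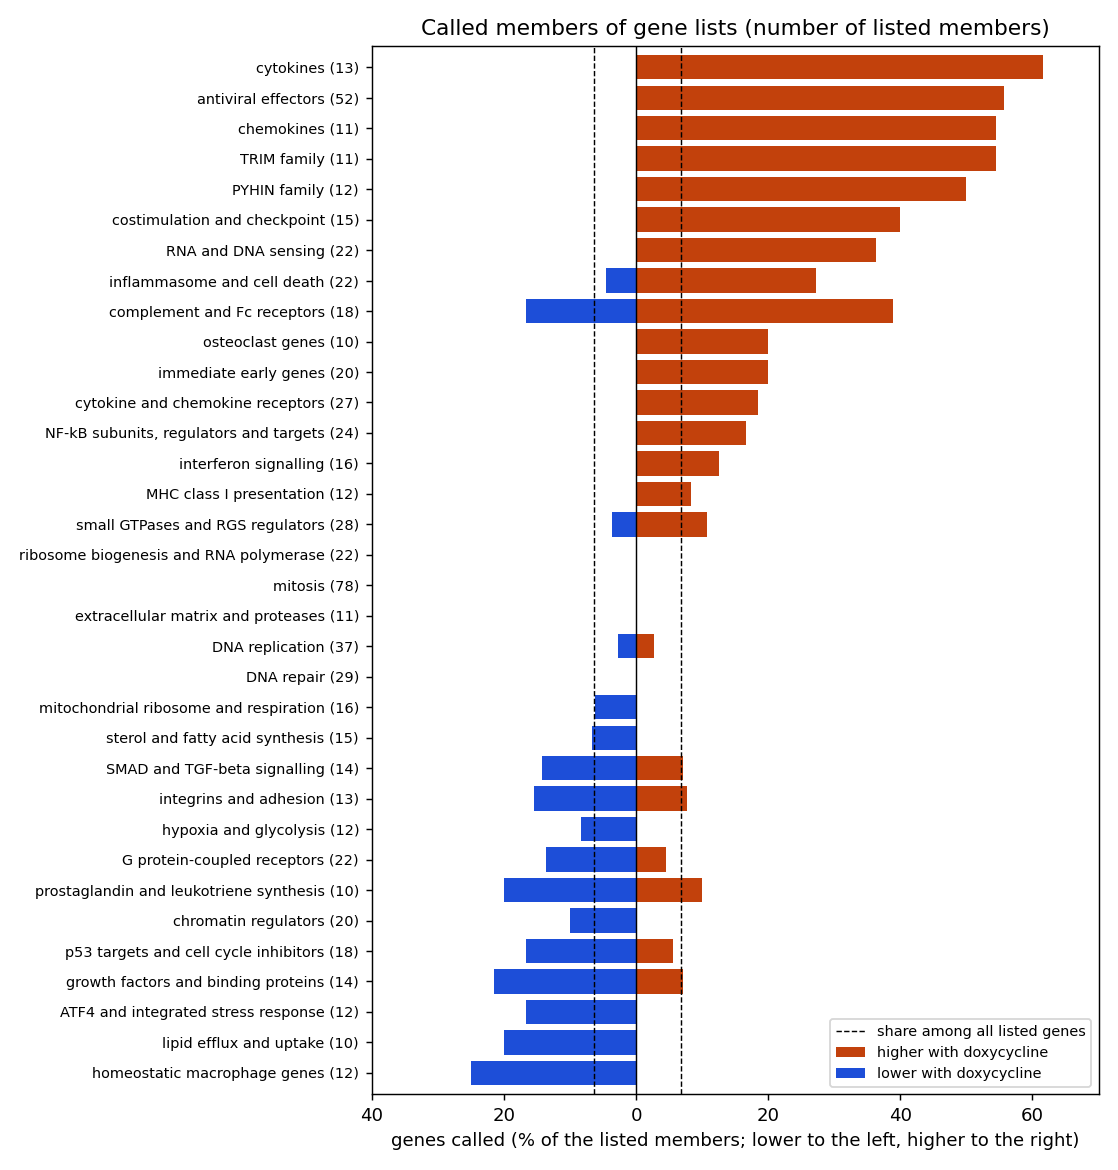
Bars give, for each list with at least 10 listed members, the percentage called higher (right, orange) and lower (left, blue), with the number of listed members in brackets; dashed lines mark the shares among all 5455 listed genes, 6.84% and 6.34%. Cytokines, antiviral effectors, chemokines and TRIM genes exceed 50% on the higher side with 0 lower, the mitosis list has 0 called of 78, and homeostatic macrophage genes reach 25.0% on the lower side.

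Genes of the resting macrophage were on the lower side. Of 12 listed homeostatic genes 3 were lower (25.0%) and 0 higher. Trem2, a lipid receptor of tissue macrophages, was at 190 rebuilt FPKM untreated, 200 with doxycycline, 15.2 with interferon-gamma and 4.56 with both. Cd33, an inhibitory sialic acid receptor, was at 31.3, 35.0, 0.873 and 0.167, and the myeloid transcription factor gene Cebpa at 17.5, 19.02, 5.48 and 2.41. In all 3 genes the unstimulated groups were close together and the group with both treatments was lowest. With 1 FPKM added to the levels only Trem2 of the 3 was still 2-fold apart. Cx3cr1, the fractalkine receptor gene, was at 3.60 with interferon-gamma alone and 2.03 with both, not called.

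The largest falls began at low levels. S1pr1, a sphingosine phosphate receptor that guides cell exit, was at 22.6 rebuilt FPKM untreated, 21.2 with doxycycline, 1.07 with interferon-gamma and 0.0886 with both. Cldn11, a tight junction gene, was at 76.2, 43.5, 1.47 and 0.127, and Igfbp4, which binds insulin-like growth factors, at 42.9, 41.1, 1.55 and 0.169. In these 3 genes the level with interferon-gamma alone already lay far below those of the unstimulated groups. Hdac11, a histone deacetylase, had the largest deposited fold, 12.26 in the authors' deposited table, between 0.582 and 0.0475. S1pr1 and Hdac11 were under 2-fold with 1 FPKM added.

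Haao, which acts in tryptophan breakdown through kynurenine, showed another order. It was at 0.0701 rebuilt FPKM untreated, 5.65 with interferon-gamma and 0.632 with both, so the group with both treatments lay between the other two. Nr1d1, a repressor of the circadian clock, was at 1.40 untreated, 1.82 with doxycycline, 1.30 with interferon-gamma and 0.162 with both. Its gene overlaps the end of Thra on the opposite strand, and Thra was lower as well, from 5.78 to 1.97 on its called entry, with another entry at 6.25 and 3.26 not called. Whether the counting used strand is not given, so reads of the overlap cannot be assigned. The ephrin ligand gene Efna1 was at 1.16, 1.15, 1.18 and 0.178, and Oit3 at 2.42, 1.78, 1.89 and 0.280. Cep68, Zfp775, Snx29, Aatk, Paox, Serpinf2 and Rab3il1, the last on a minor entry, completed the 15 largest falls together with Pycr1. With 1 FPKM added, Nr1d1, Efna1, Zfp775, Paox, Serpinf2 and Rab3il1 were under 2-fold as well. Of these, all but Zfp775 also had a q-value above 0.01.

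Among abundant genes that fell were metabolic ones. Fabp5, a fatty acid carrier, was at 363 rebuilt FPKM untreated, 231 with doxycycline, 115 with interferon-gamma and 45.3 with both. Phgdh, the first enzyme of serine synthesis, was at 126, 118, 44.6 and 17.2, and Pycr1, of proline synthesis, at 2.70, 2.56, 1.82 and 0.273. Phgdh and Pycr1 were the only called members of 12 listed genes of the ATF4 and integrated stress response list. In the lipid list 2 of 10 were lower, Fabp5 and Trem2. Acot13, a thioesterase of fatty acids, went from 38.1 to 18.1, and Bmyc, a relative of Myc, from 35.4 to 15.7. Hnrnpa1 was called on an entry that went from 67.9 to 25.5. Of the sterol and fatty acid synthesis list 1 of 15, the elongase gene Elovl6, was lower, and of the hypoxia and glycolysis list 1 of 12, the enolase gene Eno2, from 18.4 to 6.40.

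**Figure D5:**
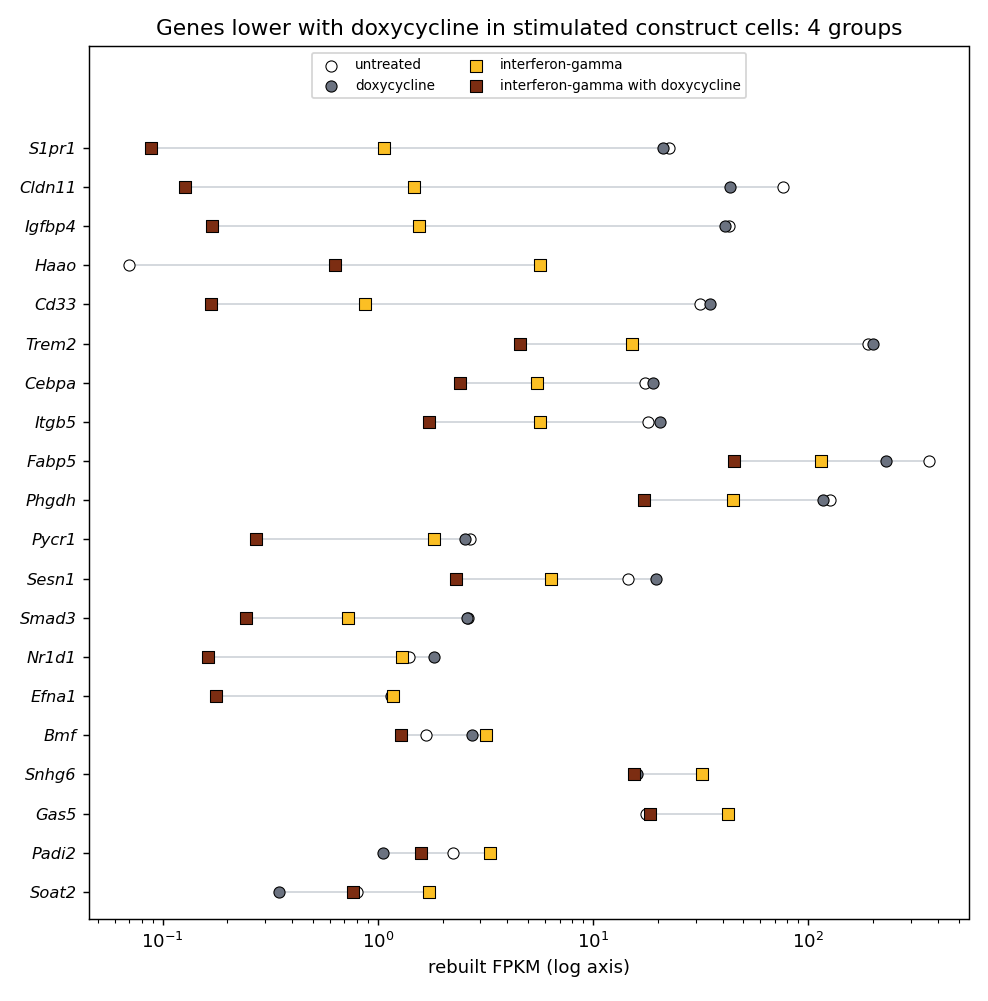
Rows are 20 genes that were lower with doxycycline in stimulated cells, with the rebuilt FPKM (log axis) in the 4 groups of construct cells; a missing marker means that the table gives no level. In S1pr1, Cldn11, Igfbp4, Cd33 and Trem2 both squares lie to the left of the circles and the dark square is lowest, while Efna1 has 3 markers near 1.2 and only the dark square apart, at 0.178.

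Lists of signalling and growth genes were mixed. Of 14 listed growth factors and their binding proteins, Igfbp4, Pdgfa (3.40 to 1.13 rebuilt FPKM) and Vegfb (14.8 to 7.02) were lower and the lymphatic growth factor gene Vegfc was higher. Of 14 listed genes of SMAD and TGF-beta signalling, Smad3 (0.726 to 0.244) and Smad6 (0.688 to 0.312) were lower and Skil, a SMAD co-repressor, was higher, from 4.28 to 9.63 on its called entry, with another entry at 4.44 and 7.63 not called. Of 18 listed p53 targets, Sesn1, Gadd45a and Bbc3 (PUMA, 35.3 to 15.3) were lower and Btg2 higher. Of 22 listed G protein-coupled receptors S1pr1, Ptgir and Mrgpre were lower and the formyl peptide receptor gene Fpr2 was higher, from 1.85 to 5.43. In the prostaglandin and leukotriene list the 5-lipoxygenase gene Alox5 (0.712 to 0.268) and Ptges (0.835 to 0.415) were lower and Pla1a was higher (0.479 to 2.13). Both falls lay below 1 FPKM, and with 1 FPKM added their log2 ratios were -0.43 and -0.37. Alox5 was at 12.9 in untreated construct cells. Of the integrin and adhesion list Cldn11 and Itgb5 (5.67 to 1.74) were lower and Itgax was higher. Of the osteoclast list 2 of 10 were higher: Dcstamp, a fusion receptor, on a minor entry, from 13.3 to 33.2, and Clcn7, a lysosomal chloride transporter, on an entry that went from 25.6 to 76.0. Their larger entries were at 63.1 and 94.2 and at 30.5 and 45.3.

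Proliferation genes were scarcely called. Of 78 listed mitosis genes 0 were called by the authors' Cuffdiff test. The 72 with both levels had a median log2 ratio of -0.12, with 52 below equality and 19 above. The median over all listed entries with both levels was 0.08. No unadjusted p-value is in the table. Of 37 listed DNA replication genes Timeless was higher, from 3.12 to 7.35 rebuilt FPKM, and E2f1 lower, from 7.15 to 3.55. Of 29 listed DNA repair genes and 22 of ribosome biogenesis and RNA polymerase 0 were called. Among those with both levels, 15 of 20 and 17 of 20 lay below equality. In the DNA replication list 11 of 27 lay below and 16 above.

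Few genes responded to doxycycline with and without interferon-gamma. The comparison in unstimulated construct cells uses other samples, and 10 of its 22 genes (45.5%) were called in stimulated cells too, which is 1.39% of the 719. The background is the 13.2% of all listed genes called in stimulated cells. The 10 include Cited1, which doxycycline induces from the construct in both comparisons by design, so its overlap was fixed in advance. Higher in both were Cited1, Pde1b, Cd5l, Pik3r6, Pla1a and the predicted gene Gm20634. Pde1b, a calcium-dependent phosphodiesterase, was at 1.73 rebuilt FPKM untreated, 9.55 with doxycycline, 8.55 with interferon-gamma and 32.2 with both. Cd5l, a secreted macrophage protein also known as AIM, was at 0.258, 0.719, 1.29 and 3.18. Pla1a, a phosphatidylserine phospholipase, was at 0.455, 1.08, 0.479 and 2.13, and Pik3r6, of the PI3-kinase gamma complex, at 0.275, 0.996, 0.357 and 1.64. Pde1b alone of these, apart from Cited1, passed 5 rebuilt FPKM.

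Lower in both were Padi2, a peptidylarginine deiminase, and Soat2, which esterifies cholesterol. Padi2 was at 2.25 rebuilt FPKM untreated, 1.06 with doxycycline, 3.33 with interferon-gamma and 1.58 with both. Soat2 was at 0.805, 0.347, 1.72 and 0.766. The other 2 shared genes went in opposite directions. Cxcl2 was at 4.34 untreated and 1.74 with doxycycline, but at 4.41 with interferon-gamma and 12.03 with both. Vegfc was at 3.82 and 1.79 in the unstimulated groups and at 3.03 and 9.0 in the stimulated ones. In both genes the groups without doxycycline were close together, and doxycycline lay below them without interferon-gamma and above them with it. The difference between these effects was not tested, since the table holds no value per sample.

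With doxycycline in parental cells, which had no construct, 1 gene was shared: the predicted gene Gm14586, lower in both. That is 2.04% of the 49 genes called in parental cells and 0.139% of the 719, against 13.2% of listed genes called in stimulated construct cells.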

How the data were processed

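The 18 samples analysed form 6 groups of 3, and the comparison described uses 2 groups with 6 samples. Libraries were poly(A)-selected and strand-specific, per the labels' protocols. Cuffdiff 2.2.1, STAR 2.5.3a, edgeR, featureCounts and FastQC 0.11.5 are named in the submitters' processing notes, with no step assigned to each. The authors' genome build is not given in the sources used here. Deposited by the authors was a table of Cuffdiff comparisons with the fold change as a linear ratio, its direction, 1 total FPKM per pair of groups and a q-value. The set of tests behind the deposited q is not stated. Of 112230 rows, 77406 name groups outside these samples and were not used; 875 rows belong to this comparison.

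The total was read as the sum of both groups, so the lower level is the total divided by 1 plus the fold; ratios do not rest on this. Levels repeated across comparisons differed by at most 0.753%. Entries are transcripts or loci. A gene took the direction of its called entries and the values of the one with the highest total FPKM; 96 called entries without a single gene name were left out. In 55 called genes an entry that was more abundant with interferon-gamma alone was not called, and the text says so for those it names. The deposited annotation's names were used as they stand, and 747 of 751 called transcript identifiers were found in GENCODE M21.

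Of the 50 gene lists, each is described by counts only. The members, lists and tests were chosen with earlier results of these data known. Named are Cited1, the 15 largest changes by fold at 1 FPKM or more and the 12 most abundant called genes in each direction, up to 6 most changed members of lists with 2 or more called, all called antiviral, interferon signalling, cytokine and chemokine genes, and genes shared with another doxycycline comparison; predicted genes were passed over, and some genes that the rule names are not reported here. Further genes that the text sets beside these, and uncalled list members, were chosen after their values were seen. Promoter motifs were counted over protein-coding genes only, since fewer than 80% of all called genes had a window. A test on values per sample had been foreseen and could not be made. The rebuilding and counting were tested on simulated data. Python 3.11.15, pandas 2.3.3, numpy 2.4.6 and matplotlib 3.10.9 were used.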

Additional observations from a re-analysis of the deposited data

How the results depend on the processing

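No paired analysis was possible because the deposited table holds no value per sample, and leaving out each replicate could not be run for the same reason. With a pseudocount of 1 FPKM 231 genes were higher and 95 lower, 2 NF-kB genes higher, 1 complement or Fc receptor gene lower and 1 homeostatic gene lower. With levels rescaled to a median log2 ratio of 0, 304 genes were higher and 2 NF-kB genes; the 346 lower could not change, since this shift only lowers ratios and only called rows are held. Counted as entries, the NF-kB list had 8 higher. Counting a gene where any entry reached 3-fold, 111 genes were higher and 87 lower. At that limit 11 antiviral, 3 TRIM, 2 sensing, 4 cytokine, 0 chemokine, 0 NF-kB, 2 costimulation and 1 complement or Fc receptor genes were higher, and 0 of the last list lower; a stricter limit keeps fewer genes by construction. With q limited to 0.01, 297 genes were higher and 264 lower, and the overlap with parental cells was 0. With 1 more A in the interferon response element the share among genes that fell was 2.68% and among genes that rose 18.6%. Of 172 named genes, 41 were under 2-fold with the pseudocount, 12 after rescaling, and 24 had a q above 0.01; none of these settings can turn a direction. Depth is unknown, so what it limits cannot be stated.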

Other observations

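Further gene families were chosen after their values were seen and were drawn only from listed genes. Their counts and shares follow in part from that choice and are not evidence that a family shifted. Of 5 listed Ms4a genes 4 were higher: beside Ms4a4c, Ms4a6c was at 12.5 rebuilt FPKM untreated, 13.2 with doxycycline, 10.2 with interferon-gamma and 43.6 with both, and Ms4a6d at 29.98, 29.02, 39.3 and 110. Of 15 listed replication-dependent histone genes 5 were higher and 0 lower, such as H4c18 from 1.87 to 7.28 and H3c4 from 1.03 to 3.10. Histone copies are near-identical and their reads can be shared. Since the libraries were poly(A)-selected, these values speak for polyadenylated histone transcripts only. Of 10 listed genes of SR splicing factors Srsf5 (20.0 to 50.7), Srsf6 (19.6 to 44.3) and Tra2a (32.8 to 66.6) were higher and 0 lower.

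Among families chosen in the same way, 7 of 11 listed host genes of small nucleolar RNAs were lower and 0 higher. Gas5 went from 42.5 to 18.5 rebuilt FPKM on its called entry, while a larger entry, at 54.5 with interferon-gamma alone, has no level with both. The others included Snhg1 from 50.6 to 24.4, Snhg12 from 22.9 to 7.26 and Snhg8 from 21.2 to 7.64. Of 17 listed genes of mitochondrial enzymes, among them ones of amino acid and fatty acid breakdown, 10 were lower and 0 higher. Idh2, a mitochondrial isocitrate dehydrogenase, was at 65.5 untreated, 68.5 with doxycycline, 16.7 with interferon-gamma and 5.85 with both. Hadh, Echs1 and Mccc2 were lower too, and Pck2 went from 15.7 to 4.18. Of 114 listed C2H2 zinc finger genes 18 were lower (15.8%) and 3 higher, all 21 below 10 FPKM. Of 6 listed Kruppel-like factor genes Klf7, Klf9, Klf10 and Klf11 were lower. Of 111 listed solute carrier genes 13 were lower and 6 higher, with Slc25a22, a mitochondrial glutamate carrier, from 16.9 to 50.6.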
